A study of Homo sapiens with 6 samples.

Results

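Knockdown of CPNE8 in RMG1 cells and knockdown of BHLHE41 in OVCAR3 cells had 66 of 17687 named genes in common: 25 were lower and 41 were higher than in cells of the same line transfected with control siRNA, with all 4 knockdown siRNAs. Another 32 genes went past the same ratio in opposite ways in the 2 lines. A gene counted as lower where its ratio to the siControl array of its own line was under 0.66 and as higher where the ratio was over 1.5. The genes were thus chosen by these ratios, which are given below as a description and not as a test. The 25 genes included the NF-κB feedback inhibitor TNFAIP3, the chemokines CCL20 and CXCL1, the macrophage growth factor CSF1 and 3 ligands of the EGF receptor family, and the 41 included the adhesion molecule L1CAM and the GTPase-activating protein ARHGAP24. The 5 genes that mark this response, TNFAIP3, CCL20, CSF1, ARHGAP24 and L1CAM, were all past the ratio with all 4 siRNAs, although ARHGAP24 was not above background in any RMG1 array and CCL20 was above it in only 1 RMG1 array.

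The study asked what follows from the loss of a gene typical of ovarian clear cell carcinoma (CCC) and of another typical of high-grade serous carcinoma (HGSC). RMG1, an established line from CCC, received siControl, siCPNE8 #A or siCPNE8 #B, and OVCAR3, an established line that stands for HGSC, received siControl, siBHLHE41 #A or siBHLHE41 #B. For each line and siRNA, total RNA prepared with ISOGEN was measured on 1 Clariom S array (Affymetrix), 6 in all, and the authors deposited log2 values. Copine 8, the product of CPNE8, is a calcium-dependent phospholipid-binding protein, and BHLHE41 is a transcriptional repressor of the circadian clock. Both siRNAs of a line share 1 siControl array, while the lines share no array. Both lines were given the same control siRNA, so an effect of losing the target and an effect of siControl itself cannot be told apart. The culture medium of RMG1 is DMEM and that of OVCAR3 RPMI in the sample labels, the study's methods give the reverse, and the time from transfection to the extraction of this RNA is not given in the sources used here. No source says whether separate cultures were used, so the spread between #A and #B is that between 2 siRNAs of different sequence and may be partly technical. The RNA comes from whole cultures, in which fewer cells of a kind and less RNA per cell cannot be told apart.

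NF-κB is a family of dimeric transcription factors held in the cytoplasm by IκB proteins and released when receptors of TNF, IL-1 or bacterial products activate the IκB kinases. Among the genes that it induces are its own inhibitors, chemokines, growth factors for myeloid cells and proteases, and ovarian carcinoma cells often secrete such factors without being stimulated. Ligands of the EGF receptor are released from the cell surface and act on the same or neighbouring cells through the RAS and ERK kinases.

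RefSeq promoter sequences (GRCh38.p14, 250 bases before to 50 bases after a start site) were at hand for 19 of the 25 lower genes and 35 of the 41 higher genes. A match to the κB consensus on either strand was in the promoters of 5 of these 19 genes (26.3%) and in 3 of these 35 (8.57%), against 8.52% of 14250 genes. The 5 were CCL20, CXCL1, MAP3K8, TGFA and TNFAIP3, and the 3 were PRLR, TRIM2 and TRO. The AP-1 motif TGANTCA matched in 6 of the 19 lower genes (31.6%) and in 8.19% of all genes. These 6 were CAMK4, CBY3, MAP3K8, PTAFR, PXT1 and SVIL. Of them, CAMK4, CBY3 and PXT1 were above background in no array, MAP3K8 and PTAFR in 1 line only, and SVIL alone in both lines. The E-box CACGTG matched in 2 of the 19 (10.5%) and in 10.8% of all genes, and the STAT motif TTCNNNGAA in 1 of the 19 (5.26%) and in 9.02% of all genes. Of the 35 higher genes, 3 matched TGANTCA (8.57%), 3 matched CACGTG (8.57%) and 4 matched TTCNNNGAA (11.4%). These are matches of letters and not measured sites. Only κB matches are printed here, for the 4 of the 5 matching lower genes above background in at least 1 array of each line. They run 5′ to 3′ on the strand of the gene, with the matching bases in capitals and 30 bases on either side. Positions are counted from the start site, negative upstream.
TNFAIP3, chr6:137867162-137867243, plus strand, with matches starting at positions -67 and -55: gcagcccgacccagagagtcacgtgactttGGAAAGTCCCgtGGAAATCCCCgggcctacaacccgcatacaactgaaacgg
CXCL1, chr4:73869284-73869354, plus strand, with overlapping matches starting at positions -79 and -78: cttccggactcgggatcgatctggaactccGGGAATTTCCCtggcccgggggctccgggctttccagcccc
CCL20, chr2:227813733-227813802, plus strand, with 1 match starting at position -79: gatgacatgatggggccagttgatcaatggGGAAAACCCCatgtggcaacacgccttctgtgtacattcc
TGFA, chr2:70554006-70554075, minus strand, with 1 match starting at position -219: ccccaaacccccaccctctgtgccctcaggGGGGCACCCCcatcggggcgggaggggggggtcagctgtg
The matches of TNFAIP3, CXCL1 and CCL20 lay close to the start site and that of TGFA lay further upstream.

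Each line had far more genes past the ratio with both of its own siRNAs than the lines shared. In RMG1 these were 478 lower genes (2.7% of the named genes) and 444 higher genes (2.51%), and in OVCAR3 379 lower (2.14%) and 541 higher genes (3.06%). Of the 478 genes lower in RMG1, 25 were also lower in OVCAR3 (5.23% of the RMG1 list and 6.6% of the OVCAR3 list, against 2.14% of all named genes). Of the same 478 genes, 19 were higher in OVCAR3 (3.97%, against 3.06% of all). Of the 444 genes higher in RMG1, 41 were higher in OVCAR3 (9.23%, against 3.06% of all) and 13 were lower (2.93%, against 2.14% of all). Over all named genes the shared classes were thus 0.141% lower and 0.232% higher with all 4 siRNAs, and the opposite classes 0.107% (lower in RMG1 and higher in OVCAR3) and 0.0735% (higher in RMG1 and lower in OVCAR3).

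Many of these genes were too dim to be measured. Background was taken per array as the level that 95% of the 612 negative control probes stayed under, between 7.86 and 8.47 on the log2 scale, and 7085 named genes were above it in at least 1 array of each line. Within these, 111 (1.57%) were lower and 163 (2.3%) higher in RMG1, and 124 (1.75%) were lower and 193 (2.72%) higher in OVCAR3. Of the 111, 10 were also lower in OVCAR3 (9.01%, against 1.75% of the 7085) and 1 was higher (0.901%, against 2.72%). Of the 163, 25 were also higher in OVCAR3 (15.3%, against 2.72%) and 2 were lower (1.23%, against 1.75%). This left 35 shared genes (0.141% lower and 0.353% higher) and 3 opposite genes (0.0141% and 0.0282%). A gene could enter this count through the group where it was high alone, as CCL20 and NRG1 did in RMG1, so the counts are a description and support nothing further. Above background in all 6 arrays were 5 of the 25 lower and 17 of the 41 higher genes, and of the 32 opposite genes 1 that was lower in RMG1 and 2 that were higher.

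**Figure D1:**
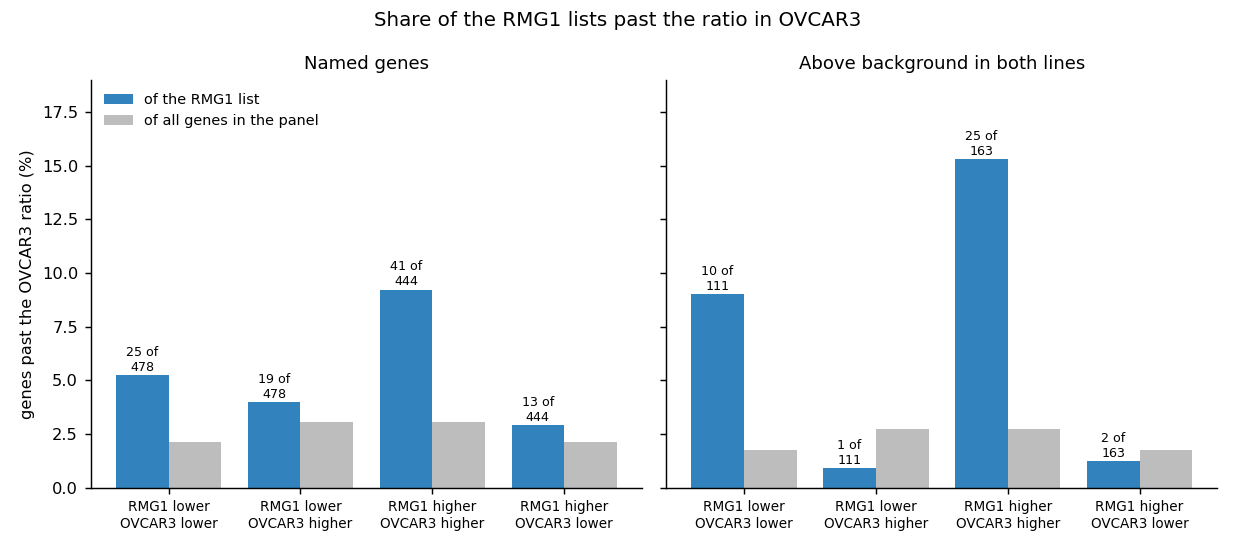
Share of the genes past the ratio in RMG1 that were also past it in OVCAR3 (blue, %, with the number of genes over each bar), beside the share of all genes past the OVCAR3 ratio (grey), for all named genes (left) and for genes above background in both lines (right). On the right, 9.01% of the lower and 15.3% of the higher RMG1 genes went the same way in OVCAR3, against 1.75% and 2.72% of all genes.

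Signs were also counted without a ratio. All 4 log2 ratios were below 0 in 2300 genes (13.0%) and above 0 in 2236 (12.6%), while 1708 genes (9.66%) were below in both RMG1 arrays and above in both OVCAR3 arrays and 1714 (9.69%) the reverse. Shared signs thus made up 25.6% of the named genes and opposite signs 19.3%, and among the 7085 genes above background 28.6% and 16.3%. The genes lower in RMG1 had a median log2 ratio of -0.04 in OVCAR3, against -0.01 for all named genes, so that most of them did not follow. For the genes higher in RMG1 the OVCAR3 median was 0.14, for those lower in OVCAR3 the RMG1 median was -0.13 and for those higher in OVCAR3 it was 0.13, against -0.01 for all named genes in RMG1. Above background these medians were -0.14, 0.27, -0.21 and 0.27. Across genes, the mean log2 ratios of the lines correlated with r = 0.12 over all named genes and 0.26 over those above background, a description over genes, which are not replicates.

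**Figure D2:**
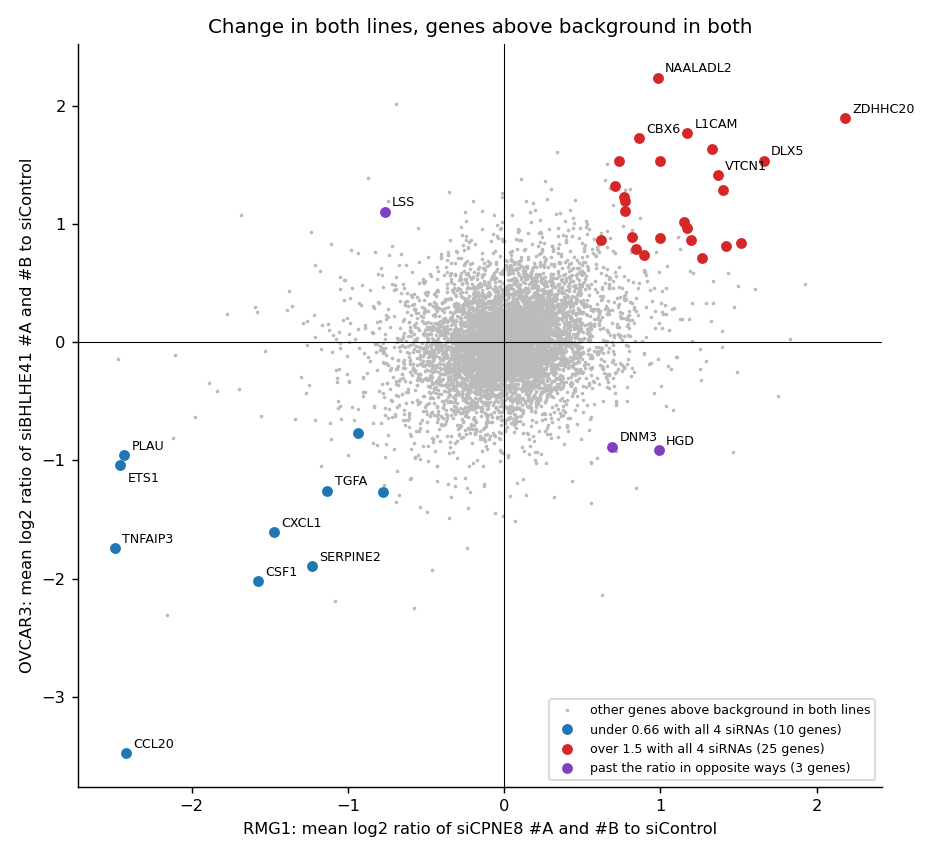
Mean log2 ratio to siControl in RMG1 (siCPNE8 #A and #B, horizontal) against OVCAR3 (siBHLHE41 #A and #B, vertical) for the genes above background in both lines, each point 1 gene. The 10 genes lower with all 4 siRNAs lie at the lower left (blue), the 25 higher ones at the upper right (red), and 3 genes, LSS, HGD and DNM3, lie in the opposite quadrants (purple).

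The targets themselves were lower only in the line where they were hit. In RMG1 the CPNE8 level was 13.76 in siControl cells and 10.67 and 11.92 in the #A and #B arrays. In OVCAR3 CPNE8 read 7.81, 7.31 and 8.03, close to background. BHLHE41 read 14.51 in OVCAR3 siControl cells and 12.99 and 13.63 in the #A and #B arrays, and in RMG1 11.41, 11.15 and 11.42. Neither gene is among the 66. On these log2 levels, RMG1 had 15 of 18 epithelial markers above background and OVCAR3 16 of 18. Of 15 clear cell carcinoma markers 10 were above it in RMG1 and between 5 and 6 in OVCAR3, and of 15 serous carcinoma markers 3 in RMG1 and between 9 and 10 in OVCAR3. Of 22 immune cell markers 0 were above background in RMG1 and 2 in OVCAR3, and of 20 markers of stroma and endothelium 1 and 2. The epithelial, immune and stroma counts were the same with siControl and with both siRNAs in each line. In OVCAR3 the immune markers were NCAM1, which neural and epithelial tumor cells also carry, at 14.11, 14.68 and 14.56, and CD74 at 8.96, 9.79 and 9.16. The summed linear signal of the 22 immune markers was 902 to 1130 in RMG1 and 18900 to 27800 in OVCAR3, and that of the 20 stroma markers 1250 to 1610 and 4870 to 5740. The part of such cells in the shared genes was not tested. Per array, 37.2% to 41.2% of the transcript probes were above background.

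TNFAIP3 (A20), a ubiquitin-editing enzyme that NF-κB induces and that shuts NF-κB signaling off, was among the genes furthest below siControl. In RMG1 its log2 level was 14.12 in siControl cells and 10.74 and 12.51 in the siCPNE8 #A and #B arrays. In OVCAR3 it was 13.20 in siControl cells and 12.16 and 10.75 in the siBHLHE41 #A and #B arrays. All 4 knockdown arrays were below both siControl arrays, and they kept 0.0964, 0.328, 0.487 and 0.183 of the signal of their control, with a mean log2 ratio of -2.49 ± 1.25 in RMG1 and -1.75 ± 1.0 in OVCAR3 (SD, n = 2 siRNAs each). The stronger siRNA was #A in RMG1 and #B in OVCAR3.

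Of 33 measured subunits and regulators of NF-κB, 8 were lower with both siRNAs in RMG1, beside 2.7% of all named genes, and 1 in OVCAR3, beside 2.14%, TNFAIP3 included in each. The difference between the lines was not tested for the list. NFKBIA, the IκBα inhibitor, read 11.01, 8.17 and 9.62 in RMG1 and 13.26, 12.90 and 11.998 in OVCAR3 (siControl, #A and #B in each), below its control with all 4 siRNAs but short of the ratio with siBHLHE41 #A. TRAF3, a negative regulator of the noncanonical pathway, was just short of the ratio, with log2 ratios of -1.05, -0.62, -0.59 and -1.12. The subunit genes NFKB1 and REL had mean log2 ratios of -1.17 ± 0.44 and -0.69 ± 0.36 in RMG1 and of -0.06 ± 0.21 and 0.03 ± 0.30 in OVCAR3. NFKB2 had -0.89 ± 0.09 and -0.42 ± 0.04, RELA -0.43 ± 0.41 and -0.35 ± 0.05, and RELB, not above background in any array, was below siControl with all 4 siRNAs. Of the 33, 11 (33.3%) were below siControl with all 4 siRNAs and 1 (3.03%) above, against 13.0% and 12.6% of all named genes, and TNFAIP3 alone passed the ratio. The list's median log2 ratio was -0.28 in RMG1 and -0.18 in OVCAR3, against -0.01 in each line for all named genes.

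CCL20, a chemokine that attracts lymphocytes and dendritic cells through CCR6, read 8.37, 5.09 and 6.81 in RMG1 (siControl, #A and #B) and in OVCAR3 12.004, 10.09 and 6.97. Only siControl was above background in RMG1. With the siRNA arrays set at background, the transcript was at least 1.4-fold lower there on the mean of the 2 siRNAs. In OVCAR3, 0.265 of the signal was left with #A, and the array with #B was not above background. CXCL1, which attracts neutrophils, was above background in all 6 arrays and read 10.39, 8.60 and 9.23 in RMG1 and 13.64, 12.68 and 11.39 in OVCAR3. The siRNAs left between 0.209 and 0.514 of the CXCL1 signal. CXCL1, CXCL2 and CXCL3 are near-identical genes, and no probe sequence was used here, so signal shared between them cannot be told apart. CXCL8, another neutrophil chemokine, was below siControl with all 4 siRNAs but with 0.0975, 0.515, 0.678 and 0.0604 of the signal left it missed the ratio with siBHLHE41 #A. Of 32 measured chemokines, 9 (28.1%) were below siControl with all 4 siRNAs and 3 (9.38%) above, against 13.0% and 12.6% of all named genes. CCL20 and CXCL1, 6.25% of the list, passed the ratio downward, against 0.141% of all. Only 5 of the 32 were above background in both lines.

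CSF1, the growth factor that macrophages need, read 10.53, 8.14 and 9.77 in RMG1. In OVCAR3 it read 10.63, 8.14 and 9.08. The siCPNE8 arrays kept 0.191 and 0.591 of the signal of their control and siBHLHE41 #B kept 0.341, while the array with siBHLHE41 #A was not above background. IL6 was below siControl with all 4 siRNAs, at log2 ratios of -1.78, -0.38, -1.76 and -2.62, the last from an array not above background, and missed the ratio with siCPNE8 #B. Of 47 measured cytokines and colony-stimulating factors, 11 (23.4%) were below siControl with all 4 siRNAs and 0 above, against 13.0% and 12.6% of all named genes. CSF1 alone passed the ratio (2.13%, against 0.141% of all). Only 5 of the 47 were above background in both lines, so most of these signs come from dim probes. Of 37 genes of the IL6-STAT3 pathway, 14 (37.8%) were below with all 4 and 3 (8.11%) above. None of the 37 passed the ratio with all 4 siRNAs. STAT3 itself had log2 ratios of -0.36, -0.25, -0.36 and -0.78, and JAK1 -0.29, -0.30, -0.23 and -0.11.

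**Figure D3:**
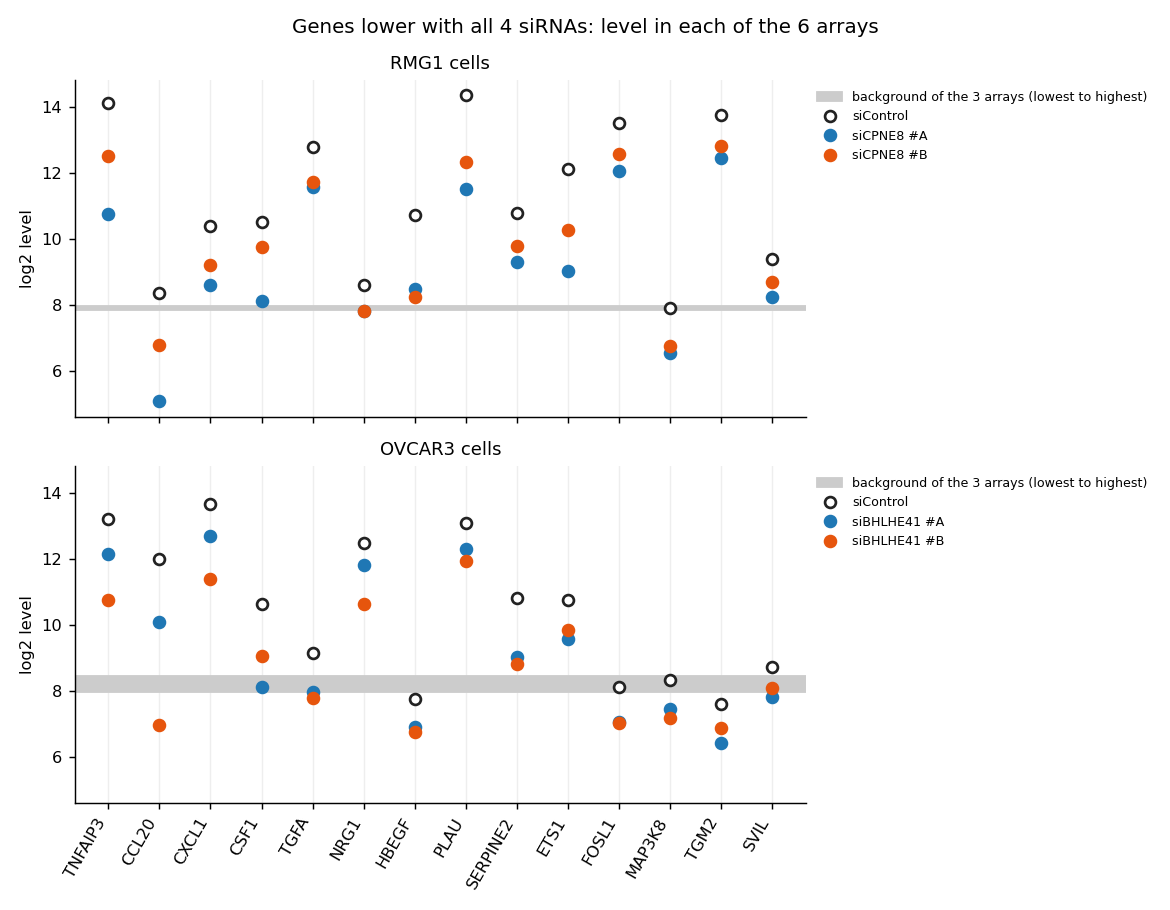
Log2 level of 14 genes lower with all 4 siRNAs in each of the 6 arrays, RMG1 at the top and OVCAR3 at the bottom, with siControl as open circles, #A in blue, #B in orange and the range of background of the 3 arrays in grey. All siRNA points lie under the open circle of their line. TNFAIP3, CXCL1, PLAU, SERPINE2 and ETS1 stay above background in all 6 arrays, whereas HBEGF, FOSL1 and TGM2 lie under it throughout OVCAR3.

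Over the 86 measured genes that NF-κB is known to induce, 32 (37.2%) were below siControl with all 4 siRNAs and 2 (2.33%) were above, against 13.0% and 12.6% of all named genes. The median log2 ratio of the list was -0.28 in RMG1 and -0.25 in OVCAR3, against -0.01 for all named genes in each line. With all 4 siRNAs, 8 of the 86 (9.3%, against 0.141% of all named genes) passed the ratio downward, namely CCL20, CSF1, CXCL1, ETS1, HBEGF, MAP3K8, PLAU and TGM2, and 0 upward. In RMG1 20 members passed the ratio downward with both siRNAs, beside 2.7% of all named genes, and in OVCAR3 23, beside 2.14%, of which these 8 were in both. Among members above background in both lines, CXCL2 was below siControl with all 4 siRNAs at log2 ratios of -2.32, -0.79, -0.68 and -0.57, the first from an array not above background. LCN2, an iron-siderophore binder, went opposite ways, with 0.52 and 0.74 in RMG1 and -2.17 and -2.10 in OVCAR3. Of the list, 33 of 86 genes were above background in both lines, so most members were measured in 1 line or in neither. The list was written with earlier results of these data known and is no independent evidence of its direction.

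Ligands of the EGF receptor family formed another group of the shared lower genes. TGFA, a ligand of EGFR, had log2 levels of 12.77, 11.57 and 11.71 in RMG1 and 9.14, 7.98 and 7.79 in OVCAR3. Its mean log2 ratio in RMG1 was -1.13 ± 0.10 (SD, n = 2 siRNAs). In OVCAR3 neither siBHLHE41 array was above background, and the transcript was at least 1.89-fold lower on the mean of the 2 siRNAs. HBEGF, which also binds EGFR, read 10.73, 8.504 and 8.24 in RMG1, leaving 0.214 and 0.178 of the signal, and in OVCAR3 it read 7.76, 6.93 and 6.78, under background in all 3 arrays, so no size is read there. NRG1, a ligand of ERBB3 and ERBB4, read 12.49, 11.82 and 10.62 in OVCAR3 and 8.60, 7.83 and 7.81 in RMG1. In RMG1 only siControl was above background, and NRG1 was at least 1.64-fold lower on the mean of the 2 siRNAs. TGFA and HBEGF were thus brighter in RMG1 and NRG1 in OVCAR3.

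No other member of the family passed the ratio with all 4 siRNAs, and the signs of the remaining members went both ways. BTC, another ligand, was above siControl with all 4 siRNAs, at log2 ratios of 0.81, 0.97, 0.36 and 0.81. EREG was under background in all 6 arrays, as were EGF, EPGN, NRG2, NRG3 and NRG4. Among the receptors, EGFR was below siControl with all 4 siRNAs at log2 ratios of -1.22, -0.58, -0.80 and -0.05, ERBB3 was above it at 0.44, 0.02, 0.07 and 0.67, and ERBB4, above background only in OVCAR3, had 1.30 and 0.42 there. Of 21 measured genes of the family and its regulators, 6 (28.6%) were below siControl with all 4 siRNAs and 3 (14.3%) above, against 13.0% and 12.6% of all named genes. Past the ratio downward were 3, TGFA, HBEGF and NRG1 (14.3%, against 0.141% of all). Of 40 genes of ERK feedback and output, 7 (17.5%) were below with all 4 and 5 (12.5%) above. FOSL1, an AP-1 subunit that ERK stabilises, was the only 1 of these 40 past the ratio, with 13.51, 12.04 and 12.59 in RMG1 and 8.12, 7.08 and 7.03, under background, in OVCAR3. DUSP5, an ERK phosphatase, had log2 ratios of -1.03, -0.13, -2.94 and -1.56, PHLDA1 -1.27, -1.15, -0.42 and -0.90, and MYC -1.59, -0.91, -0.37 and -0.35.

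PLAU, the urokinase plasminogen activator, was bright in both lines, at 14.35 in RMG1 and 13.07 in OVCAR3 with siControl. With #A and #B it read 11.52 and 12.33 in RMG1 and 12.29 and 11.94 in OVCAR3. The siRNAs left 0.14 and 0.246 of the signal in RMG1 and 0.582 and 0.456 in OVCAR3. SERPINE2, a secreted inhibitor of thrombin and of plasminogen activators, read 10.79, 9.31 and 9.80 in RMG1 and 10.82, 9.02 and 8.83 in OVCAR3, with mean log2 ratios of -1.23 ± 0.35 and -1.90 ± 0.14. A protease and a protease inhibitor of the same system were thus both lower, PLAU further in RMG1 and SERPINE2 further in OVCAR3. PLAT, the tissue plasminogen activator, was lower with both siRNAs only in RMG1, with log2 ratios of -2.05 and -1.61. In OVCAR3 the siRNAs differed, with 0.14 for #A and -0.97 for #B. Of 24 measured genes of the plasminogen system and its proteases, 5 (20.8%) were below siControl with all 4 siRNAs and 1 (4.17%) above, against 13.0% and 12.6% of all named genes. The list's median was -0.31 in RMG1 and 0.00 in OVCAR3.

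ETS1, a transcription factor of invasive carcinoma cells, read 12.12, 9.04 and 10.28 in RMG1 and 10.76, 9.58 and 9.85 in OVCAR3. It was above background in all 6 arrays and had mean log2 ratios of -2.46 ± 0.88 and -1.04 ± 0.19. MAP3K8, a kinase that links inflammatory receptors to ERK, stayed under background in all RMG1 arrays and had 8.35, 7.47 and 7.201 in OVCAR3. There only siControl was above background, and MAP3K8 was at least 1.1-fold lower on the mean of the 2 siRNAs. For siBHLHE41 #A alone no fold is bounded, because the siControl level was under the background of that array. TGM2, a transglutaminase, read 13.74, 12.46 and 12.80 in RMG1 and was under background in OVCAR3. SVIL, an actin-binding protein of the membrane skeleton, read 9.40, 8.25 and 8.69 in RMG1 and 8.73, 7.83 and 8.09 in OVCAR3, where the array with #A was not above background.

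Of the 25 lower genes, 10 were above background in both lines, 8 in 1 line only and 7 in no array, and only CXCL1, ETS1, PLAU, SERPINE2 and TNFAIP3 were above it in all 6 arrays. The 7 genes without any array above background were CAMK4, CBY3, ENDOU, GAPT, PXT1, SAMD7 and TLCD3A, and for these no size is read. Of the 8 genes above background in 1 line, FOSL1, HBEGF, IRAK2, PDE10A, PTAFR and TGM2 were measured in RMG1, and CTSE and MAP3K8 in OVCAR3. Chosen after their values were seen, CTSE, an aspartic protease, read 9.70, 8.32 and 7.16 in OVCAR3, and IRAK2, a kinase of the IL-1 receptor and Toll-like receptors, read 10.21, 7.96 and 9.32 in RMG1. The threshold of 0.66 equals a log2 ratio of -0.5995. CAMK4, CBY3 and ENDOU were just inside it, with a weakest log2 ratio of -0.607, -0.611 and -0.622, and OR10AG1, OR51E1 and TRAF3 just outside, with -0.597, -0.595 and -0.588.

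L1CAM, a neural cell adhesion molecule that carcinoma cells also carry, was higher with all 4 siRNAs and above background in all 6 arrays. In RMG1 siControl read 11.14, #A 12.78 and #B 11.84, and in OVCAR3 the same order gave 9.09, 10.93 and 10.78. The signal was 3.12-fold and 1.62-fold that of siControl in RMG1 and 3.58-fold and 3.23-fold in OVCAR3, with the smallest change for siCPNE8 #B. CADM1, another adhesion molecule of the immunoglobulin superfamily, read 10.65, 12.07 and 11.65 in RMG1 and was under background in OVCAR3. VTCN1 (B7-H4), a member of the B7 family of T cell inhibitors, was already bright with siControl, at 13.52 in RMG1 and 13.71 in OVCAR3. With #A and #B it read 15.15 and 14.63 in RMG1 and 14.60 and 15.65 in OVCAR3, between 1.85-fold and 3.83-fold its control. Of 47 measured genes of the L1 family and immunoglobulin adhesion molecules, 8 (17.0%) were above siControl with all 4 siRNAs and 5 (10.6%) below, against 12.6% and 13.0% of all named genes. CADM1 and L1CAM, 4.26% of the list, passed the ratio upward with all 4 siRNAs, against 0.232% of all named genes.

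ARHGAP24, a GTPase-activating protein that turns RAC off, was dim. It read 5.62, 7.35 and 7.53 in RMG1, all under background, and 6.76, 8.40 and 8.98 in OVCAR3. There only #B was above background, so no size is read for #A or for the mean of the 2 siRNAs. ZDHHC20, a palmitoyltransferase, had the highest mean log2 ratio of the 41 genes, at 2.04. It read 10.32, 12.66 and 12.34 in RMG1 and 10.04, 11.51 and 12.35 in OVCAR3, or 5.06-fold, 4.07-fold, 2.77-fold and 4.97-fold its control. All 4 siRNA arrays lay over both siControl arrays.

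DLX5, ID1, CBX6 and THAP4 were also among the higher genes. DLX5, a homeobox factor of skeletal development, read 10.09, 11.87 and 11.38 in OVCAR3 and 6.56, 8.20 and 8.25 in RMG1, where siControl was not above background and the transcript was at least 1.19-fold higher. ID1, a BMP-induced inhibitor of basic helix-loop-helix factors, read 9.28, 10.14 and 10.40 in RMG1 and 11.78, 12.71 and 12.61 in OVCAR3, with mean log2 ratios of 0.99 ± 0.18 and 0.88 ± 0.07. CBX6, a Polycomb protein, read 8.09, 9.07 and 8.83 in RMG1 and 8.06, 9.75 and 9.81 in OVCAR3, and THAP4, a THAP domain protein, had log2 ratios between 0.73 and 0.99. Of 46 genes of TGF-beta, activin and BMP signaling, ID1 alone passed the ratio, 5 (10.9%) were above siControl with all 4 siRNAs and 3 (6.52%) below.

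The next genes encode enzymes and a carrier. PRKACB, a catalytic subunit of protein kinase A, read 8.22, 9.23 and 9.86 in RMG1 and 8.42, 10.33 and 9.78 in OVCAR3. CBLB, a ubiquitin ligase for activated receptors, read 10.77, 11.82 and 12.03 in RMG1 and 13.61, 14.70 and 14.54 in OVCAR3, and TRIM2, also a ubiquitin ligase, 12.08, 13.44 and 13.11 and 12.21, 13.16 and 12.99. For CBLB the 4 ratios lay between 1.91-fold and 2.38-fold. UCP2, a carrier of the inner mitochondrial membrane, had mean log2 ratios of 0.76 ± 0.01 in RMG1 and 1.23 ± 0.40 in OVCAR3, and CMPK1, which phosphorylates pyrimidine nucleotides, 1.17 ± 0.16 and 0.97 ± 0.07. TM7SF2, a sterol reductase of cholesterol synthesis, was higher with log2 ratios of 0.72, 0.75, 1.44 and 1.62, while of the 31 measured genes of cholesterol and fatty acid synthesis 2 (6.45%) were above siControl with all 4 siRNAs and 2 (6.45%) below.

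**Figure D4:**
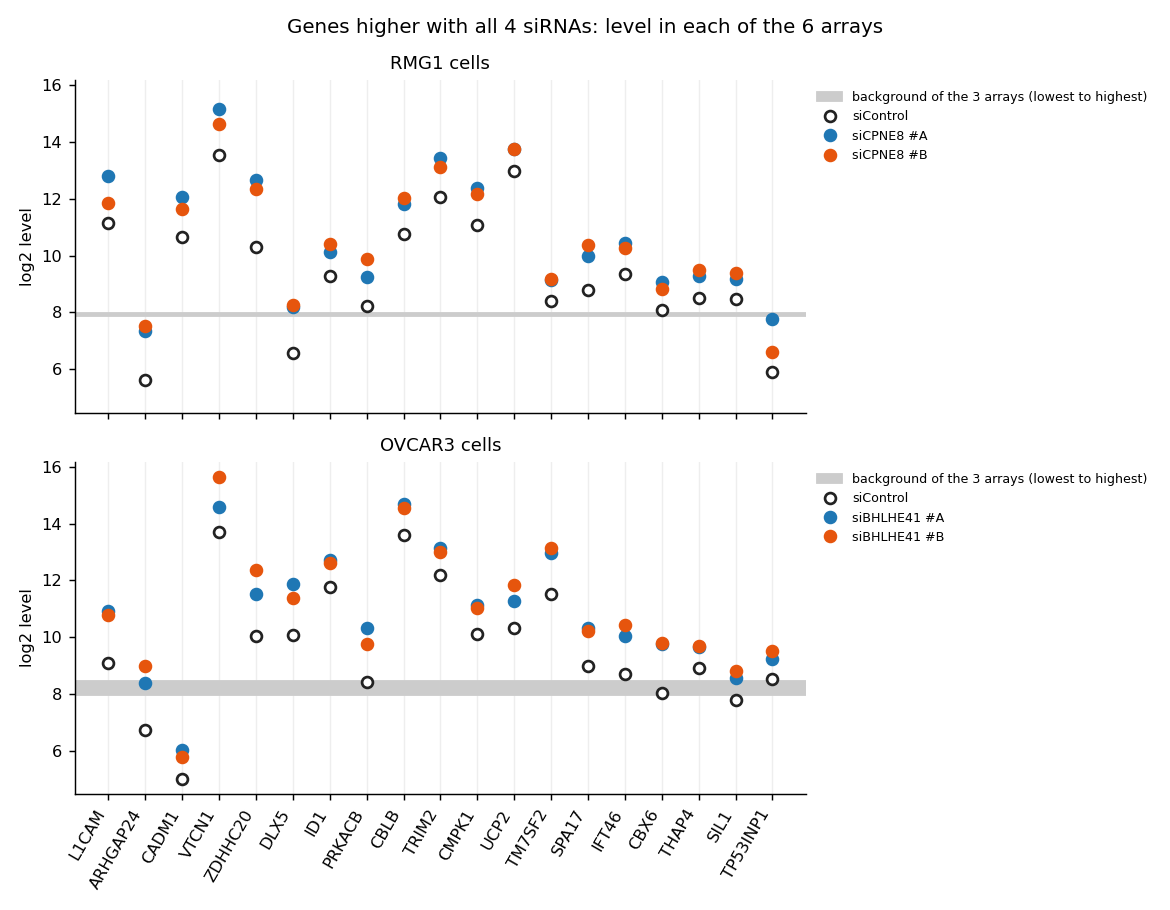
Log2 level of 19 genes higher with all 4 siRNAs in each of the 6 arrays, RMG1 at the top and OVCAR3 at the bottom, with siControl as open circles, #A in blue, #B in orange and the range of background of the 3 arrays in grey. All siRNA points lie over the open circle of their line. ARHGAP24 and TP53INP1 lie under background in RMG1 and CADM1 in OVCAR3.

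IFT46, a part of the intraflagellar transport machinery of cilia, and SPA17, a sperm protein also found in cilia, were above background in all 6 arrays. IFT46 read 9.35, 10.43 and 10.28 in RMG1 and 8.72, 10.06 and 10.44 in OVCAR3, and SPA17 8.78, 9.996 and 10.36 and 8.997, 10.33 and 10.24. SIL1, an exchange factor of the chaperone BiP, had log2 ratios of 0.73 and 0.91 in RMG1 and was at least 1.43-fold higher in OVCAR3, where siControl was not above background. TP53INP1, a p53 target, read 8.54, 9.26 and 9.51 in OVCAR3 and was under background in RMG1. Of 32 measured p53 targets, 4 (12.5%) were above siControl with all 4 siRNAs and 6 (18.8%) below, with TP53INP1 alone past the ratio.

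Of the 41 higher genes, 25 were above background in both lines, 6 in 1 line only and 10 in no array, and 17 were above it in all 6 arrays. The 10 without any array above background were CCDC30, CLYBL, DACT2, DNAJC22, EDARADD, MTURN, OR8B3, PLSCR4, ROPN1L and ZCWPW1, and no size is read for these. Above background in both lines were also CASTOR2, CPE, NAALADL2, RALGPS2, SLC25A11, SLCO4C1, SNORD89, STK17B and TPRG1L, while ARHGAP24, FRRS1, PRLR, TP53INP1 and TRO were above it only in OVCAR3 and CADM1 only in RMG1. The threshold of 1.5 equals a log2 ratio of 0.585. SNORD89, STK17B and MTURN were just inside it, with a weakest log2 ratio of 0.589, 0.589 and 0.59, and SUMF1, ACSM3 and CHID1 just outside, with 0.583, 0.581 and 0.578.

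The siRNAs of a line did not act with equal strength on these genes. In RMG1, #A left less signal than #B in 20 of the 25 lower genes, beside a larger change with #A in 55.1% of all named genes, and in OVCAR3 #A was the stronger in 10 of the 25, beside 49.4% of all. The median log2 ratio of the 25 was -1.47 with siCPNE8 #A, -0.94 with siCPNE8 #B, -1.003 with siBHLHE41 #A and -1.09 with siBHLHE41 #B. CPNE8 was itself lower with #A than with #B in RMG1, at 10.67 against 11.92, and BHLHE41 was lower with #A than with #B in OVCAR3, at 12.99 against 13.63. In the 41 higher genes #A was the stronger in 21 in RMG1 and in 22 in OVCAR3, and the 4 medians lay between 0.98 and 1.09. Above background in all 6 arrays and more than 2-fold from siControl with all 4 siRNAs were TNFAIP3 among the lower genes and PRKACB, SPA17 and ZDHHC20 among the higher ones.

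Genes that went opposite ways were mostly dim in at least 1 line. Of the 19 genes lower in RMG1 and higher in OVCAR3, 1 was above background in both lines, and of the 13 that went the other way 2 were. LSS, the lanosterol synthase of cholesterol synthesis, read 8.97, 8.17 and 8.26 in RMG1 and 8.64, 9.63 and 9.85 in OVCAR3. HGD, an enzyme of tyrosine breakdown, read 10.72, 11.77 and 11.66 in RMG1 and 11.01, 10.09 and 10.10 in OVCAR3, and DNM3, a dynamin, 10.15, 10.94 and 10.75 and 9.91, 8.88 and 9.17. The 2 siRNAs of a line lay close together for these genes. Of the 86 NF-κB induced genes, MMP1 and CFB passed the ratio in opposite ways. MMP1, a collagenase, was above background in no array. CFB, a complement factor, was under background in RMG1 and read 10.92, 9.20 and 7.39 in OVCAR3, the last not above background.

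Lists of cell growth showed small shifts with few genes past the ratio. Over all named genes, 13.0% were below siControl with all 4 siRNAs and 12.6% above. Of 52 genes of ribosome biogenesis, 17 (32.7%) were below siControl with all 4 siRNAs and 0 above, with medians of -0.07 in RMG1 and -0.25 in OVCAR3. LYAR, a nucleolar protein, was the furthest of them, at log2 ratios of -0.92, -0.30, -0.52 and -0.91. Of 63 genes of mitosis and cell division, 11 (17.5%) were below with all 4 and 0 above, with medians of -0.10 in both lines. Of 37 genes of quiescence and FOXO activity, 13 (35.1%) were above siControl with all 4 siRNAs and 3 (8.11%) below. Among these 13, CCNG2, an atypical cyclin, had log2 ratios of 1.42, 0.37, 0.59 and 0.64, CDKN1B, the p27 cell cycle inhibitor, 0.32, 0.28, 0.28 and 0.72, and HBP1, a repressor of cell cycle genes, 0.67, 0.49, 0.26 and 0.64. Apart from TP53INP1, no gene of these 3 lists passed the ratio with all 4 siRNAs. Of 42 genes of hypoxia and glycolysis, 11 (26.2%) were below with all 4 and 2 (4.76%) above, with SLC2A1, a glucose transporter, at -0.80, -0.66, -0.54 and -0.44.

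**Figure D5:**
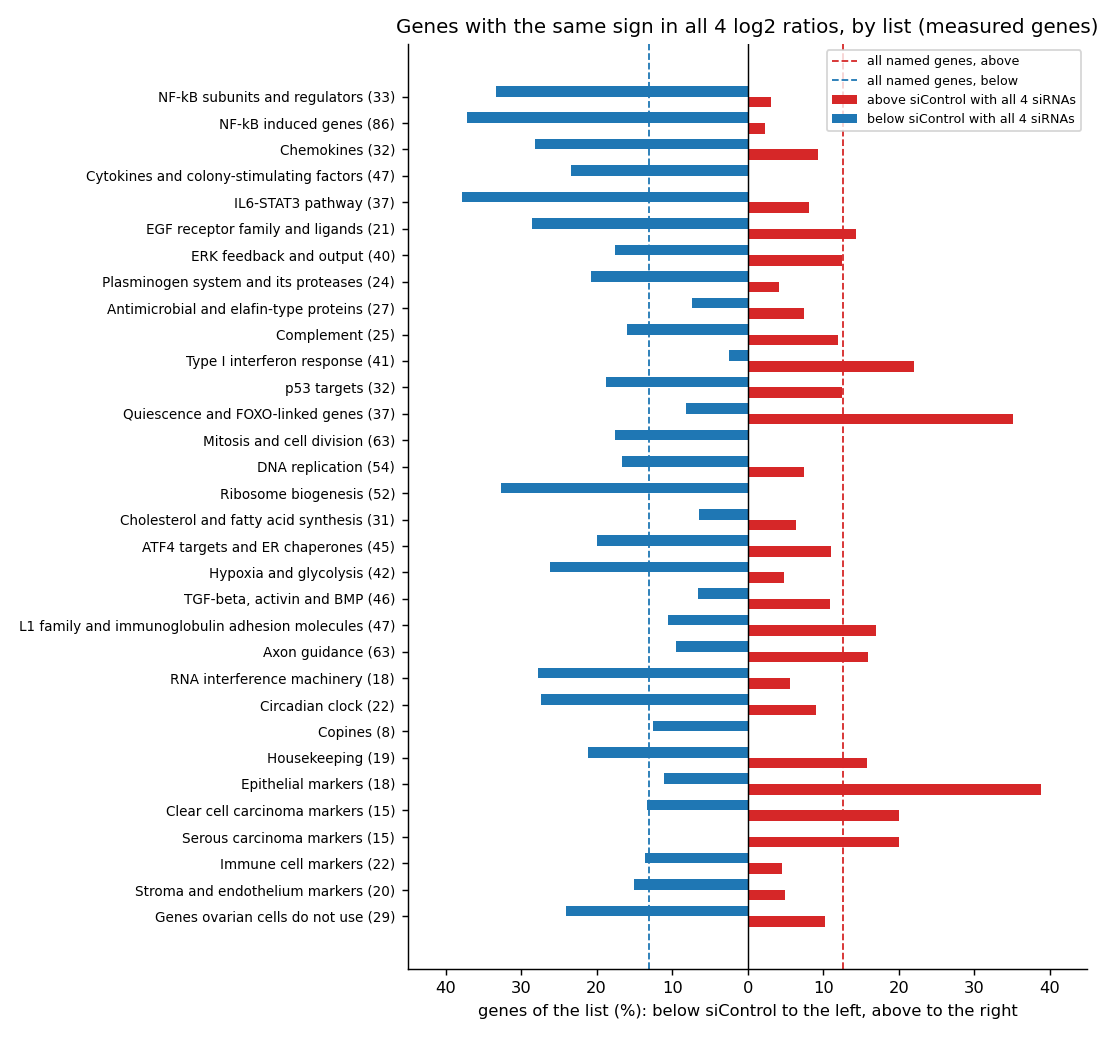
Share of the measured genes of each list (number in parentheses) that were below siControl with all 4 siRNAs (blue, to the left, %) or above it with all 4 (red, to the right, %), with dashed lines at 13.0% and 12.6%, the shares of all named genes. NF-κB induced genes reach 37.2% to the left and 2.33% to the right, and quiescence and FOXO-linked genes 8.11% and 35.1%.

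Epithelial markers were above siControl with all 4 siRNAs in 7 of 18 (38.9%) and below in 2 (11.1%), none past the ratio. The shares of all named genes were 12.6% and 13.0%. CDH1, the epithelial cadherin, had log2 ratios of 0.45, 0.52, 0.19 and 0.65, and CD24 0.84, 0.34, 0.38 and 1.08. The type I interferon response had a median log2 ratio of 0.59 in RMG1 and -0.04 in OVCAR3, and the difference was not tested for the list. Of its 41 genes 9 (22.0%) were above siControl with all 4 siRNAs, 1 (2.44%) was below and 0 passed the ratio with all 4; IFI6 had 1.29 and 2.56 in RMG1 and 0.52 and 0.46 in OVCAR3. Of 18 genes of the RNA interference machinery, which loads the siRNAs, 5 (27.8%) were below and 1 (5.56%) above with all 4. The part of either list in the shared genes was not tested.

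None of the lists below had a gene past the ratio the same way with all 4 siRNAs. Their shares stand against 13.0% below and 12.6% above for all named genes. Below and above siControl with all 4 siRNAs were 9 and 4 of 54 genes of DNA replication, 9 and 5 of 45 ATF4 targets and ER chaperones, and 6 and 10 of 63 genes of axon guidance. Antimicrobial and elafin-type proteins had 2 and 2 of 27 and complement genes 4 and 3 of 25. The circadian clock, to which BHLHE41 belongs, had 6 and 2 of 22 genes (27.3% and 9.09%). Of the 8 copines 1 was below and 0 were above, and of 19 housekeeping genes 4 and 3 (21.1% and 15.8%). Among the markers, 2 and 3 of 15 for clear cell carcinoma were below and above, 0 and 3 of 15 for serous carcinoma, 3 and 1 of 22 for immune cells and 3 and 1 of 20 for stroma and endothelium. Of 29 genes specific to other tissues, 7 (24.1%) were below with all 4 siRNAs and 3 (10.3%) above, although only 2 of them were above background in either line, so shared signs below siControl also occurred among dim probes of such genes.

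No gene passed a test across all probes. limma, fitted to the 6 arrays as 4 groups with Benjamini-Hochberg adjustment over 21448 transcript probes, called 0 probes (0.0%) for the mean effect of the 2 lines, for the difference between the lines and for each line alone. The smallest adjusted p was 0.671 for the mean effect and 0.999 for the difference from limma, and 749 probes were higher and 620 lower at an unadjusted p under 0.05 for the mean effect. Its 2 residual degrees of freedom come from the differences between #A and #B, so the siControl arrays were taken to vary as much as these.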

How the data were processed

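Each of the 6 arrays was 1 line treated with 1 siRNA. The authors deposited log2 values made with Affymetrix Expression Console and RMA (versions not given in the sources used here). Some of these values exceed the 16 bits of a scanner, for a reason the sources do not state, so levels are not compared between genes. Of 24351 probes 21448 were transcripts, and 17709 carried a gene symbol, giving 17687 genes, with the probes of 20 genes averaged. The number of arrays limits the precision. Samples were grouped by the sample labels, and each knockdown array was set against the siControl array of its line. Ratios past 1.5 or 0.66, the thresholds the study used for these arrays, were counted. limma 3.58.1 in R 4.3.3 fitted 4 groups, and was tested on simulated data. Counts and medians used pandas 2.3.3 in Python 3.11.15. Bounds (at least N-fold) are for the mean log2 ratio of the 2 siRNAs of a line, with the dim arrays set at background. They do not hold for each siRNA alone. Other log2 ratios are printed as measured, and those from arrays not above background give no size. The members and the gene lists were chosen with earlier results of these data known. Genes named were the 5 markers, both targets, up to 15 genes per direction and 6 opposite genes per direction with the largest weakest ratio above background in both lines, the 3 nearest the threshold on each side, list members past the ratio, up to 4 further list members with the largest mean absolute log2 ratio and genes completing a family. Any other gene given with values was chosen after its values were seen. Alternatives were a 2-fold threshold, dim genes left out, quantile normalization, centred ratios, all transcript probes, a variance trend, control probes included, a replicate block and each siRNA array left out. siRNA sequences are not used here, and the result of 1 gene list is not reported here.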

Additional observations from a re-analysis of the deposited data

Results flagged for a closer look

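In 32 genes every siRNA array of RMG1 lay on the other side of its siControl from every siRNA array of OVCAR3, and both lines were past the ratio. Of these, 7 are given here. The mean log2 ratio in RMG1 minus that in OVCAR3 was -1.8645 for LSS, 1.9072 for HGD and 1.5755 for DNM3, the 3 such genes above background in both lines. It was -2.2298 for MMP1, 3.3295 for CFB, 2.1246 for CRYAB, a small heat shock protein, and -2.4934 for SERPINA1, the α1-antitrypsin gene, which were chosen after their values were seen and were under background in at least 1 line. limma's test of the difference between the lines, over all transcript probes, gave each of these genes an adjusted p of 0.999.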

How the results depend on the processing

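With thresholds of 2 and 0.5, dim genes included, 5 genes were lower and 5 higher with all 4 siRNAs, 1 was lower in RMG1 and higher in OVCAR3 and 0 the reverse, and the medians in the other line were -0.0782 for the genes lower in RMG1 and -0.2203 for those lower in OVCAR3. With dim genes left out, the counts were 10, 25, 1 and 2, 2027 genes kept 1 sign, and the medians were -0.1399 and -0.2142. Quantile normalization gave an RMG1 median of -0.1511 and kept 22 of the 25 lower and 38 of the 41 higher genes. Leaving out 1 siRNA array, which leaves fewer ratios to pass, gave 51 to 81 lower genes, 77 to 114 higher genes, 40 to 52 and 30 to 34 opposite genes, 6328 to 6654 genes with 1 sign, and medians of -0.0669 to -0.0142 in OVCAR3 and -0.1395 to -0.0557 in RMG1. The RMG1 median was -0.0557 without siBHLHE41 #B. With control probes included, limma called 1 probe for the mean effect, 1 for the difference and 1 in RMG1, a positive control probe each time and 0 transcript probes. With the siRNA letter as a replicate block, limma called 0 probes in all 4 contrasts; the letters mark different siRNAs and the difference of #A and #B correlated between the lines with r = -0.0416 across genes. The medians in the other line stayed negative under these alternatives. The members were chosen for their direction with all 4 siRNAs. A stricter threshold, dim genes left out or 1 array left out therefore could not reverse it, and nothing is drawn from that. Of the 66 genes, 31 were not above background in both lines. The other 35 needed only 1 array of each line above it. Above background in all 6 arrays were 5 of the 25 lower and 17 of the 41 higher genes. Signal over background thus also limits part of the 35.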
